A study of Mus musculus with 9 samples.

Results

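Potassium channels, TRP channels and Piezo channels were examined in 3 endothelial populations of the fetal mouse heart. The genes were taken by name: every row of the expression table whose Ensembl identifier maps to a symbol of the potassium channel series (Kcn, further letters and a number), of the canonical, melastatin or vanilloid TRP subfamilies (Trpc, Trpm and Trpv) or to Piezo1 or Piezo2. This gave 121 of the 41214 genes in the table. By name they comprised 40 voltage-gated potassium channel genes, 16 accessory subunit genes, 15 inward rectifiers, 13 two-pore channels, 8 channels opened by calcium or sodium, 8 TRPM, 7 TRPC and 6 TRPV channels and 2 Piezo channels. A further 6 carry such a name without being channel genes, among them Trpc4ap, which encodes a TRPC4-associated protein, and antisense transcripts such as Kcnd3os. A count in at least 1 of the 9 libraries was found for 120 of them, Kcnd3os being the exception. A count in all 9 libraries was found for 41, and 81 passed the filter on low counts and were tested.

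The libraries came from ventricles of embryos at E17.5. All embryos, in every population, carried the transgenes Nes-Gfp(Tg/0) and Nes-CreER(Tg/0) and the reporter allele R26(tom/+), and all had received 0.1 ug of tamoxifen 2 days before collection, so that Nes regulatory sequence drove both GFP and the recombinase that switches on Tomato. Each population was sorted as viable cells lacking Ter119 and CD45 and carrying CD31 and GFP. The coronary cells enriched for arteries and capillaries (arterial) had low Emcn and were positive for Tomato, and the coronary cells enriched for veins (venous) had low Emcn, no Tomato and low GFP. The gate given for the endocardial population names no condition on Emcn or Tomato, so that it may also hold other endothelial cells. There were 3 libraries per population, numbered by batch, and the labels do not say whether they came from separate animals, so that the p-values measure no more than the spread among libraries, which may be technical.

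Potassium channels set the resting membrane potential of endothelial cells, and a more negative potential increases the drive for calcium entry through channels that are not voltage-gated. Piezo channels open when the membrane is stretched or sheared, and Piezo1 is known as a flow sensor of developing vessels. TRP channels are cation channels, many of them permeable to calcium, that open in response to lipids, temperature, osmotic change or store depletion.

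The promoter sequences of channel genes that changed were examined first. Whether these sequences had a part in the differences was not tested. RefSeq (GRCm38.p6) gave a promoter for 92 of the 121 genes. Of the 10 genes that differed between populations (below), 9 were searched, and Piezo2 was left out of the search by choice. For 5 of the 9 genes searched, the 250 bases before the start site are printed, on the strand of the gene and 5′ to 3′. The 5 genes differed from both coronary populations and have a window without annotated exon bases. These are Kcnt2 and Kcnc2, which were higher in the endocardial libraries, and Kcne3, Kcna5 and Kcnj2, which were lower there. For Kcnc2, which has 2 such windows, the one farther upstream is shown. Capitals mark matches to any of 7 motifs searched on both strands.
Kcnt2 (chr1:140245468-140245717, plus strand): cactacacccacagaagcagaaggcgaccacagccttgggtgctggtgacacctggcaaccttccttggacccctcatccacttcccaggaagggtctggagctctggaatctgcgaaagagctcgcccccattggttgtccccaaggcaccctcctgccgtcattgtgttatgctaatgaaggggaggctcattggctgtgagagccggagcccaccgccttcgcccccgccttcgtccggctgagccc
Kcnc2 (chr10:112269767-112270016, plus strand): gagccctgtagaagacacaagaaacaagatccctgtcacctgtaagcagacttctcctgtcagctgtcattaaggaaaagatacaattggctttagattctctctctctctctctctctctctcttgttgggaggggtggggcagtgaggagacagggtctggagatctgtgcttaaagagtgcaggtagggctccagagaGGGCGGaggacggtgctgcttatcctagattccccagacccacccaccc
Kcne3 (chr7:100178433-100178682, plus strand): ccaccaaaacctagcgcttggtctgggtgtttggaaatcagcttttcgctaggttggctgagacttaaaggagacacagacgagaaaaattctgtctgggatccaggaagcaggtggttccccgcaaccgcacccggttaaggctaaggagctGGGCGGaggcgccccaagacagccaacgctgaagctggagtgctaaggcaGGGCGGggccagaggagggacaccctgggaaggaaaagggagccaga
Kcna5 (chr6:126535556-126535805, minus strand): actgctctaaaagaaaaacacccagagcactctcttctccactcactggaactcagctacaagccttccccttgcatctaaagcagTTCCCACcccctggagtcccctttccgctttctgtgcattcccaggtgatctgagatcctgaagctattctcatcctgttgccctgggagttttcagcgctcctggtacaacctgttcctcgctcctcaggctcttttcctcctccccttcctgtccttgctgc
Kcnj2 (chr11:111065914-111066163, plus strand): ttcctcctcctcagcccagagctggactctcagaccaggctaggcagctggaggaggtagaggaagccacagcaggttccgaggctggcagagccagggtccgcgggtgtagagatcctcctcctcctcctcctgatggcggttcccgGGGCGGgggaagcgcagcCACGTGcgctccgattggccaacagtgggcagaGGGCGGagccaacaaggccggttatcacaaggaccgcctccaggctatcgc
The Kcne3 window belongs to the second of its 2 start sites and holds 2 matches to the SP and KLF motif GGGCGG, beginning 97 and 47 bases before the start. The Kcnj2 window also holds 2 such matches, at 102 and 51 bases before the start, and 1 match to the E-box CACGTG at 84 bases. The Kcnc2 window holds 1 match to GGGCGG, at 49 bases. The other Kcnc2 window without exon bases (chr10:112270871-112271120) lies directly before the annotated gene start and holds no match to any of the 7 motifs. The Kcnc2 windows with exon bases hold none either. The window of the other Kcne3 start site, with 114 exon bases, holds no GGGCGG. It holds 1 match to the AP-1 motif TGANTCA, at 37 bases. In the Kcna5 window there is 1 match to the RBPJ motif GTGGGAA, at 164 bases and on the opposite strand. The Kcnt2 window holds no match to these or to the ETS motif CCGGAAG, the GATA motif AGATAA, the AP-1 motif TGANTCA or the TATA box TATAAA. Among all 32851 promoters of the same length, 32.7% held GGGCGG, 6.02% CACGTG, 5.42% GTGGGAA, 6.91% CCGGAAG, 9.99% AGATAA, 6.75% TGANTCA and 12.4% TATAAA. The GC content of the windows was 61.6% for Kcnt2, 52.4% for Kcnc2, 58.0% for Kcne3, 53.2% for Kcna5 and 65.6% for Kcnj2, against a median of 52.4% over all promoters.

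Total counts per library ranged from 12750475 to 19474299. Between 65 and 107 of the 121 channel-list genes had at least 1 count in a library. Endocardial replicate 1 stood apart from the other endocardial libraries, with 107 of these genes and 21021 genes in all with a count, against 73 and 65 channel-list genes and 17251 and 17063 genes in replicates 2 and 3. The arterial libraries had 104, 84 and 90 channel-list genes with a count and the venous libraries 93, 87 and 74. The 101 channel-list genes with a mean under 5 CPM (normalized counts scaled to a common library total) together made up 208, 118 and 77.8 CPM in the endocardial libraries, 146, 68.0 and 155 in the arterial and 83.9, 80.6 and 55.6 in the venous libraries. Low-level channel genes were therefore highest in endocardial replicate 1 and in arterial replicates 3 and 1.

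**Figure D1:**
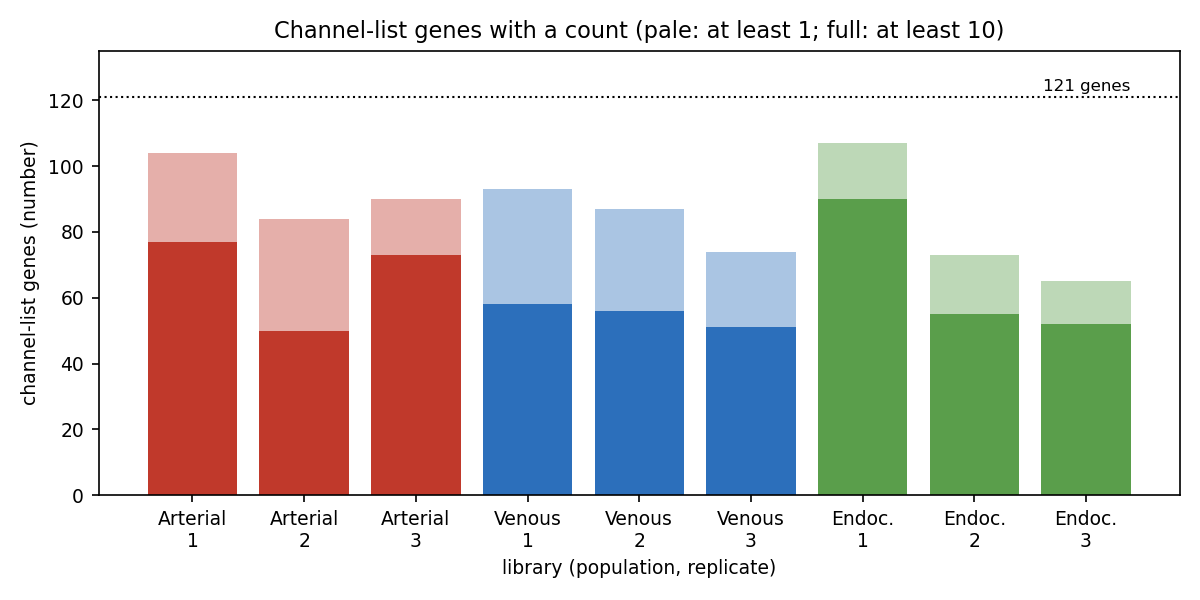
Number of channel-list genes with at least 1 count (pale bars) and at least 10 counts (full bars) in each library, with the total of 121 as a dotted line. Endocardial replicate 1 has the most genes at both levels, 107 and 90, and the other endocardial libraries have 73 and 65 genes with a count.

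Markers of the sorted populations separated the libraries as sums, with exceptions among single genes. The summed level of 6 endocardial markers was 3784 to 4509 CPM in the endocardial libraries and 94.6 to 398 CPM in the coronary ones, and all 6 were called higher there. One of them, Tbx20, was nevertheless at 136 ± 36.2 CPM in the venous and 88.0 ± 10.6 CPM in the endocardial libraries. The 6 arterial markers summed to 662 to 814 CPM in the arterial and 270 to 369 CPM in the other libraries, with Gja4 at 55.4 ± 17.4 CPM in the arterial and 49.2 ± 14.2 CPM in the endocardial libraries. The 3 venous markers summed to 437 to 609 CPM in the venous, 176 to 270 in the arterial and 193 to 317 in the endocardial libraries, an order set by Aplnr. The other venous markers, Nr2f2 and Ephb4, had their highest means in the endocardial libraries, with 123 ± 8.73 and 104 ± 56.4 CPM, while their venous means were 54.8 ± 7.79 and 80.7 ± 40.2 CPM.

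Transcripts of other cell types were present as well. The 6 lymphatic markers summed to 84.5 to 113 CPM in the arterial, 123 to 205 in the venous and 690 to 798 in the endocardial libraries, where 4 were called higher than in coronary libraries. The 10 fibroblast markers, all with counts, set the arterial libraries apart, at 111 to 127, 1404 to 1640 and 1702 to 2055 CPM in the same order. Of these, 7 were called higher in endocardial than in coronary libraries, but Col1a1 was not, at 149 ± 27.5 CPM in the venous and 26.7 ± 8.98 CPM in the endocardial libraries. The 14 cardiomyocyte markers summed to 291 to 418, 430 to 593 and 538 to 638 CPM, with overlap between venous and endocardial libraries, 3 called higher in the endocardial libraries and Nppa at 0 there. In the other direction, the 12 mural markers summed to 580 to 775, 432 to 540 and 321 to 432 CPM, most of it Mcam. That gene was at 557 ± 81.4 CPM in the arterial, 433 ± 53.4 in the venous and 299 ± 39.4 in the endocardial libraries. Of the 12, 1 (Pdgfrb) was called higher and 2 (Rgs5 and Mcam) were called lower in the endocardial libraries, and Higd1b was at 0 there. The 8 erythroid and platelet markers summed to 541 to 1217, 228 to 387 and 80.4 to 249 CPM, an order set by globin genes. Only 1 of them, Hbb-bs, was called lower in the endocardial libraries (log2 -2.14, adjusted p = 0.0356), while Pf4, Itga2b and Gp9 had their highest means there. The 7 epicardial markers summed to 183 to 211, 156 to 185 and 25.5 to 33.1 CPM, most of it Wt1. Of the 6 tested, Wt1 alone was called between endocardial and coronary libraries. Krt19 was also called in venous against endocardial libraries (log2 venous minus endocardial 3.32, adjusted p = 0.0266). The part of these transcripts in the channel results was not tested. In bulk libraries, fewer cells of a type and less RNA per cell cannot be told apart.

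The most abundant channel-list genes per length of transcript were Piezo1, Kcna5, Kcne3, Trpm7 and Kcnj2. Averaged over the 9 libraries their levels were 29.0, 16.7, 16.3, 12.9 and 11.5 CPM per kb of exon. Kcnj8 followed at 7.06, Trpc4ap and Piezo2 both at 6.73 and Kcnk6 at 5.94 CPM per kb. A mean of at least 5 CPM was reached by 20 of the 121 genes, and all 10 genes that differed between populations were among these 20. In the arterial libraries the highest mean levels were 21.3 ± 7.23 CPM per kb for Kcna5 and 19.0 ± 4.11 for Piezo1 (SD, n = 3), which overlap within their spread. In the endocardial libraries Piezo1 stood at 42.2 ± 16.6 CPM per kb and Kcna5 at 4.71 ± 2.92.

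**Figure D2:**
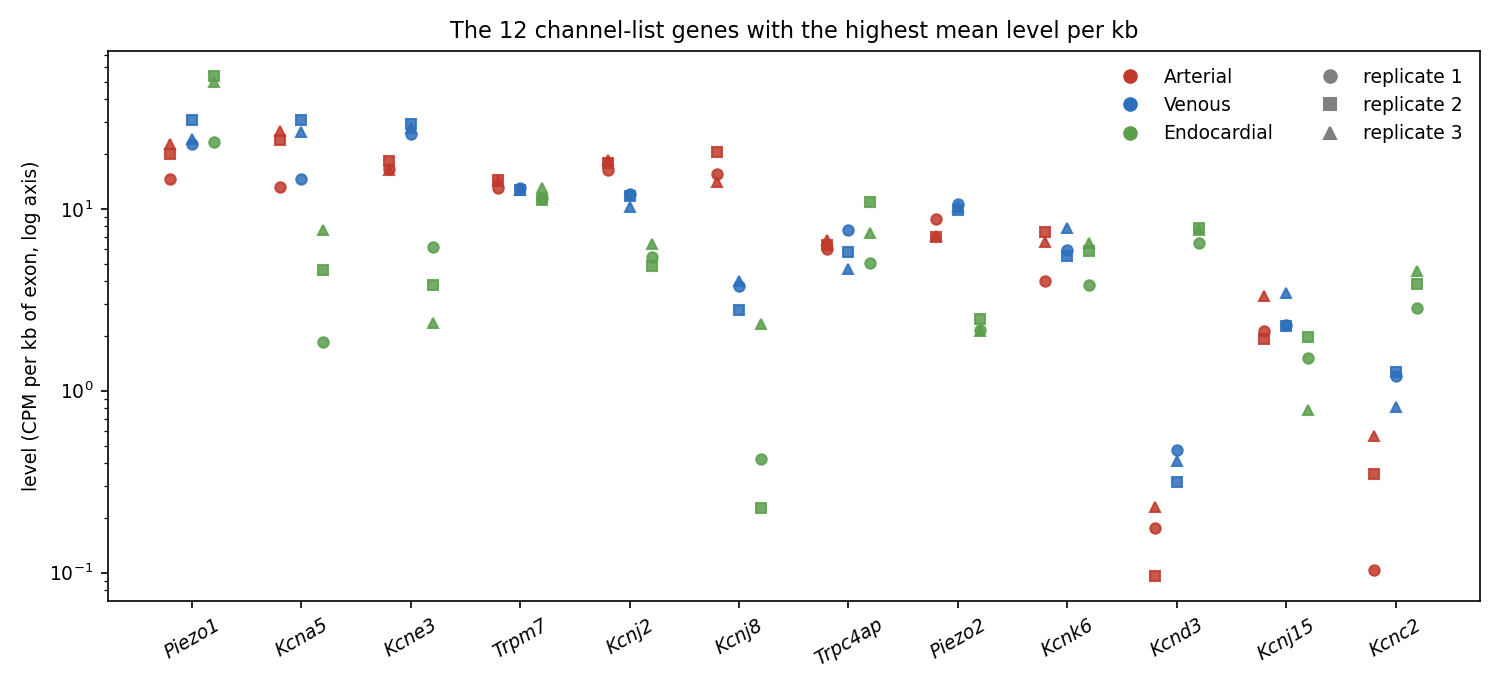
Level in CPM per kb of exon (log axis) of the 12 channel-list genes with the highest mean, with each library as a point, colour for the population and marker shape for the replicate. Piezo1 has the highest mean at 29.0 CPM per kb; Piezo2, Kcne3, Kcna5, Kcnj2 and Kcnj8 lie lower in the endocardial libraries, and Kcnd3 and Kcnc2 lie higher.

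Between endocardial and coronary libraries, 10 of the 81 tested channel genes differed, 5 higher and 5 lower in the endocardial libraries. The higher genes were Kcnd3, Kcnt2, Kcnc2, Kcnq5 and Piezo1, and the lower genes were Piezo2, Kcne3, Kcna5, Kcnj2 and Kcnj8. Genes were called at an adjusted p under 0.05 in the quasi-likelihood test of edgeR over all genes tested, with the coronary value taken as the mean of the arterial and venous values on the log scale. The 10 calls are 12.3% of the tested channel genes, against 13.9% of all 17103 genes tested (6.91% higher and 7.00% lower), so that the share is near the background. Arterial against endocardial libraries gave the same 10 genes, again 12.3%, against a background of 11.7% (5.92% higher and 5.75% lower in arterial libraries). Venous against endocardial libraries gave 7 genes, 8.64%, against 10.2% (5.81% higher and 4.44% lower in venous libraries): Kcnq5, Piezo1 and Kcnj8 were not called there. These 3 comparisons share the endocardial libraries and are not independent. None of the 81 genes was called between arterial and venous libraries, where 1.07% of all genes were called. In that comparison 12 channel genes had an unadjusted p under 0.05, and DESeq2 called 4, namely Kcnd3, Kcnj2, Kcnj8 and Kcnt2. The shares of all genes at that cutoff and in DESeq2 are not given here, so that these counts have no background beside them.

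**Figure D3:**
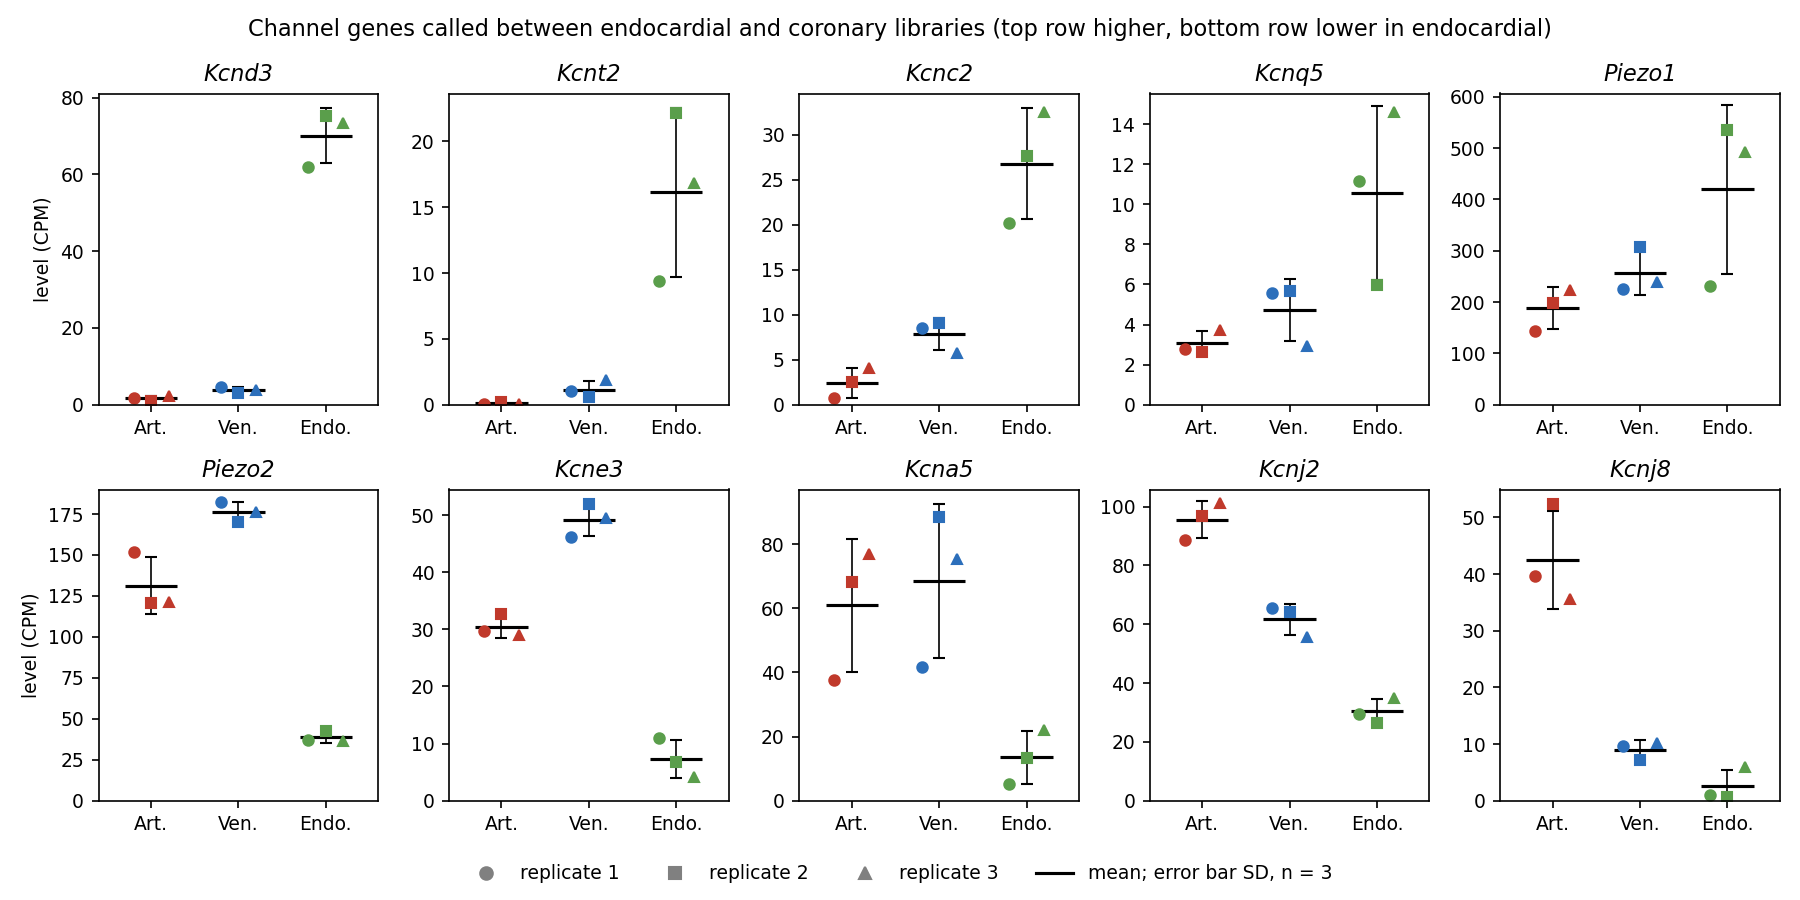
Level in CPM of the 10 called channel genes in the arterial, venous and endocardial libraries; points are libraries, bars are means and error bars SD (n = 3). The top row holds the genes higher in endocardial libraries, where Kcnd3 reaches 62.0 to 75.2 CPM against at most 4.55 in coronary libraries, and the bottom row the genes lower there.

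The Piezo genes differed in opposite directions. Piezo2, a mechanically activated channel best known from touch receptors (chromosome 18, 63010213 to 63387183, minus strand), was at 152, 121 and 121 CPM in the arterial, 183, 170 and 176 CPM in the venous and 37.1, 42.7 and 36.6 CPM in the endocardial libraries. The endocardial values lie below all coronary values with no overlap. Piezo2 was 3.92-fold lower in endocardial than in coronary libraries (log2 -1.97 ± 0.16 SE, adjusted p = 1.98e-07), 3.38-fold higher in arterial (1.76 ± 0.17, adjusted p = 2.07e-06) and 4.54-fold higher in venous libraries than in endocardial ones (2.18 ± 0.18, adjusted p = 4.16e-07). Its venous values all lay above its arterial values, but that difference did not pass the test (log2 arterial minus venous -0.42 ± 0.17, adjusted p = 0.463).

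Piezo1, known as a flow sensor (chromosome 8, 122481698 to 122551329, minus strand), was at 144, 199 and 224 CPM in the arterial, 225, 306 and 239 CPM in the venous and 231, 535 and 492 CPM in the endocardial libraries. Endocardial replicates 2 and 3 lie above all coronary libraries, and replicate 1 lies within the venous range. The endocardial mean was 1.90-fold above the coronary one (log2 0.93 ± 0.24, adjusted p = 0.0225) and 2.22-fold above the arterial one (log2 arterial minus endocardial -1.15 ± 0.29, adjusted p = 0.0225). Against the venous libraries it was not called (log2 venous minus endocardial -0.71 ± 0.29, adjusted p = 0.168), but it was with the replicate block (-0.63, adjusted p = 0.0278), without the filter on low counts (adjusted p = 0.00616) and without endocardial replicate 1 (-0.99, adjusted p = 0.0017). The endocardial against coronary call was lost without any 1 of the arterial libraries (adjusted p = 0.0629, 0.0655 and 0.0515 for replicates 1, 2 and 3), endocardial replicate 2 or 3 (0.153 and 0.116) or venous replicate 1 or 3 (0.0611 and 0.0811). The arterial against endocardial call was lost without arterial replicate 1, 2 or 3 (0.115, 0.0912 and 0.0695), endocardial replicate 2 or 3 (0.101 and 0.0895) or venous replicate 3 (0.0542). Within each of the 3 batches the endocardial value was the higher one. Piezo1 overlaps Ctu2 and Gm20388 on the opposite strand, which had 2150 and 7295 counts against 39599 for Piezo1, and without strand information reads of the overlap cannot be told apart.

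The balance of both Piezo genes was compared per kb of exon. The ratio of Piezo2 to Piezo1 was 0.608, 0.352 and 0.313 in the arterial libraries, 0.469, 0.321 and 0.426 in the venous and 0.0932, 0.0461 and 0.0431 in the endocardial libraries. Every library thus held more Piezo1 than Piezo2 per length, and the endocardial ratios lie below all coronary ratios. The ratio combines a lower Piezo2 level, which held in every alternative run, with a higher Piezo1 level that depends on single libraries as given above.

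No TRP channel was called in any of the 4 comparisons; 14 of the 21 TRP channel genes were tested. Over all genes the called shares were 13.9% for endocardial against coronary, 11.7% for arterial against endocardial, 10.2% for venous against endocardial and 1.07% for arterial against venous libraries, so that few calls would fall among 14 genes at the background rate. Trpm7, a channel fused to a kinase that carries magnesium and calcium, was the most abundant and nearly level, at 147, 164 and 160 CPM in the arterial, 147, 144 and 143 CPM in the venous and 130, 126 and 148 CPM in the endocardial libraries (log2 endocardial minus coronary -0.16 ± 0.13, adjusted p = 0.534). Trpc6, a channel opened by diacylglycerol, had 1.83, 5.19 and 3.87 CPM in the endocardial libraries and at most 1.05 CPM in any coronary library. That gap did not pass the test (log2 2.75 ± 1.14, adjusted p = 0.139). Trpm3 had 9.52 ± 4.61 CPM in the endocardial, 6.24 ± 3.37 in the venous and 5.83 ± 2.58 in the arterial libraries, and Trpc1 had 4.73 ± 2.93, 3.85 ± 1.64 and 4.70 ± 1.58 CPM (SD, n = 3). Trpm4, a channel opened by calcium but passing sodium, was highest in venous replicate 2 at 8.64 CPM and between 1.07 and 2.95 CPM in the other libraries.

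The TRP channels most often studied in endothelium were low. Trpv4, opened by swelling and by lipid messengers, was at 2.95, 0.115 and 0 CPM in the arterial, 0, 1.48 and 0 CPM in the venous and 0.840, 0.793 and 0.814 CPM in the endocardial libraries. Trpv2 was at 2.65, 3.74 and 4.85 CPM, 2.96, 4.14 and 3.43 CPM and 1.99, 3.03 and 0 CPM in the same order. Trpc4 had counts in 2 libraries only, at 1.33 CPM in arterial replicate 1 and 0.432 CPM in venous replicate 2, and was not tested. None of these genes was called, and whether a difference could be found at these levels was not tested.

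Among voltage-gated potassium channels, Kcnd3, Kcnc2 and Kcnq5 were higher and Kcna5 was lower in the endocardial libraries, and 26 of the 30 tested genes were not called. Kcnd3, a pore subunit of the transient outward current of heart muscle (chromosome 3, 105452330 to 105674002, plus strand), was at 62.0, 75.2 and 73.3 CPM in the endocardial libraries. It was at 1.70, 0.922 and 2.21 CPM in the arterial and 4.55, 3.03 and 3.94 CPM in the venous libraries, so that all 3 populations are separate. The endocardial level was 28.3-fold above the coronary one (log2 4.82 ± 0.26, adjusted p = 1.66e-09), with folds of 43.9 against arterial (adjusted p = 2.38e-08) and 18.2 against venous libraries (adjusted p = 3.89e-07). These calls held in every alternative run. Venous against arterial libraries the gene was not called by edgeR (log2 arterial minus venous -1.27 ± 0.33, adjusted p = 0.103), but was with DESeq2 (adjusted p = 0.0328), without the filter on low counts (adjusted p = 0.0129) and without arterial replicate 3 (log2 -1.58, adjusted p = 0.045). The antisense transcript Kcnd3os had no count. Of the partner subunits that modulate Kcnd3 in other cells, Kcnip1, Kcnip2, Kcnip3 and Kcnip4 averaged 0.659, 0.740, 2.53 and 2.05 CPM over all libraries, and none was called. Dpp6 and Dpp10 encode further partners. Dpp6 reached at most 4.81 CPM in any library, while Dpp10 averaged 75.8 CPM. Dpp10 was at 136, 50.1 and 163 CPM in the arterial, 54.7, 26.8 and 12.2 CPM in the venous and 154, 59.5 and 25.9 CPM in the endocardial libraries, with wide overlap and no call (endocardial minus coronary adjusted p = 0.821).

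Kcnc2, a fast delayed rectifier known from rapidly firing neurons (chromosome 10, 112271121 to 112467024, plus strand), was at 0.737, 2.48 and 4.04 CPM in the arterial, 8.58, 9.08 and 5.79 CPM in the venous and 20.2, 27.7 and 32.5 CPM in the endocardial libraries. The 3 populations do not overlap. Endocardial libraries stood 6.16-fold above coronary ones (log2 2.62 ± 0.39, adjusted p = 0.00013), 11.0-fold above arterial (adjusted p = 0.000151) and 3.43-fold above venous libraries (adjusted p = 0.0218). The last call was lost without endocardial replicate 2 or 3 (adjusted p = 0.0611 and 0.0833) or venous replicate 1 or 3 (0.0523 and 0.106). The 10 neural and Schwann cell markers summed to 38.5 to 55.7 CPM in the arterial, 13.4 to 23.5 CPM in the venous and 19.0 to 31.9 CPM in the endocardial libraries. Most of each sum was Stmn2, at 39.7 ± 7.67, 15.8 ± 3.85 and 16.2 ± 0.532 CPM in the same order. Whether RNA of neural cells had a part in the Kcnc2 values was not tested.

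Kcnq5, a slowly activating channel that contributes to M-type currents (chromosome 1, 21398403 to 21961942, minus strand), was at 2.80, 2.65 and 3.75 CPM in the arterial, 5.56, 5.68 and 2.92 CPM in the venous and 11.2, 5.98 and 14.6 CPM in the endocardial libraries. All endocardial values lie above the coronary ones, replicate 2 by a small margin. The fitted difference was 2.78-fold (log2 1.47 ± 0.43, adjusted p = 0.0303) against coronary and 3.44-fold (adjusted p = 0.0395) against arterial libraries. Both calls were close to the threshold: with the replicate block the adjusted p was 0.0509 and 0.0539. Leaving out 1 library also ended the endocardial against coronary call for arterial replicate 1 or 2 (0.0518 and 0.0623), endocardial replicate 1 or 3 (0.0787 and 0.222) and venous replicate 1, 2 or 3 (0.0541, 0.0527 and 0.0934). The arterial against endocardial call was lost without any 1 library other than endocardial replicate 2, with adjusted p from 0.052 (venous replicate 3) to 0.202 (endocardial replicate 3). Kcnq5 overlaps the pseudogene Gm7658 on its own strand and Gm26580 on the other strand, which had 162 and 72 counts against 822 for Kcnq5, so that its counts are uncertain to that extent.

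Kcna5, the channel of the ultrarapid delayed rectifier current of atrial muscle and also found in vessels (chromosome 6, 126532551 to 126535412, minus strand), was at 37.6, 68.2 and 77.0 CPM in the arterial, 41.8, 88.5 and 75.4 CPM in the venous and 5.27, 13.2 and 22.0 CPM in the endocardial libraries. The endocardial values lie below all coronary values, and arterial and venous values overlap (log2 difference -0.17 ± 0.50, adjusted p = 0.982). Kcna5 was 4.78-fold lower in endocardial than in coronary libraries (log2 -2.26 ± 0.49, adjusted p = 0.0137), 4.51-fold lower than in arterial (adjusted p = 0.0273) and 5.07-fold lower than in venous libraries (adjusted p = 0.0225). The first call was lost without arterial replicate 2 (adjusted p = 0.0566), endocardial replicate 2 (0.116) or venous replicate 3 (0.051). The arterial against endocardial call was lost without arterial replicate 2 or 3 (0.134 and 0.119), endocardial replicate 2 (0.171) or venous replicate 2 or 3 (0.0639 and 0.0731). The venous against endocardial call was lost without arterial replicate 2 or 3 (0.064 and 0.0508), endocardial replicate 2 (0.14) or venous replicate 2 or 3 (0.108 and 0.107). In each batch the endocardial library was the lower one.

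The other voltage-gated genes at 5 CPM or more were not called in any comparison. Kcnq1, the pore of the slow delayed rectifier of heart muscle, had 9.45 ± 3.10 CPM in the arterial, 5.33 ± 1.35 in the venous and 4.99 ± 0.554 in the endocardial libraries (SD, n = 3; endocardial minus coronary adjusted p = 0.532). Kcna6 was at 6.96 ± 0.557, 9.29 ± 4.10 and 4.15 ± 4.03 CPM in the same order. Kcnq3, a subunit of neuronal M-type channels, was high in endocardial replicate 1 (20.5 CPM) and arterial replicates 1 and 3 (8.77 and 21.5 CPM) and between 1.61 and 6.39 CPM in the other libraries. These are the 3 libraries in which low-level channel genes were most abundant. Kcnh2, the rapid delayed rectifier of heart muscle, was at 5.96, 2.52 and 1.90 CPM in the endocardial libraries and at most 1.99 CPM in coronary ones (adjusted p = 0.364).

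Kcnt2, a potassium channel opened by intracellular sodium (chromosome 1, 140246158 to 140612067, plus strand), had the largest fitted fold between endocardial and coronary libraries among the called genes, although its endocardial level was below that of Kcnd3. Its counts were 1, 4 and 1 in the arterial libraries, 17, 9 and 36 in the venous and 123, 307 and 248 in the endocardial libraries. In CPM these were 0.0737, 0.230 and 0.0735, then 1.01, 0.556 and 1.84, then 9.40, 22.1 and 16.8, so that the populations do not overlap. The endocardial level was 40.4-fold above the coronary one (log2 5.34 ± 0.55, adjusted p = 2.67e-06) and 14.0-fold above the venous one (log2 venous minus endocardial -3.81 ± 0.65, adjusted p = 0.000844). Against arterial libraries the fit gave log2 -6.86 ± 0.80 (adjusted p = 1.23e-05), a size that rests on 6 arterial counts and became -7.66 without arterial replicate 2. Arterial and venous libraries were not told apart by edgeR (log2 -3.05 ± 0.74, adjusted p = 0.0644), but were by DESeq2 (adjusted p = 0.0241), without the filter on low counts (0.0135), without endocardial replicate 1 (0.0493) and without venous replicate 2 (-3.37, adjusted p = 0.0353).

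The calcium-activated channels, which hyperpolarize adult endothelium when calcium rises, were low and were not called. Kcnn3, a small-conductance channel, was at 3.98, 4.38 and 5.66 CPM in the arterial, 9.64, 7.72 and 8.14 CPM in the venous and 18.5, 6.99 and 4.75 CPM in the endocardial libraries. Arterial values lay below venous ones, but the difference did not pass the test (log2 -0.86, adjusted p = 0.72), and the endocardial mean rests on replicate 1. Kcnn2 averaged 4.66 ± 3.01, 1.78 ± 1.78 and 5.86 ± 6.52 CPM and Kcnn4, the intermediate-conductance channel, 0.427 ± 0.373, 0.214 ± 0.328 and 1.28 ± 1.34 CPM in arterial, venous and endocardial libraries. Kcnma1, the large-conductance channel, stayed at or under 1.45 CPM in every library, and its accessory subunit genes Kcnmb1 and Kcnmb4 averaged 1.41 ± 2.09, 1.08 ± 0.828 and 1.15 ± 1.05 CPM and 1.93 ± 1.24, 6.10 ± 1.09 and 1.96 ± 1.01 CPM.

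Of the inward rectifiers, Kcnj2 and Kcnj8 were lower in the endocardial libraries. Kcnj2, a strong inward rectifier that holds the resting potential of muscle and endothelium (chromosome 11, 111066164 to 111076821, plus strand), was at 88.7, 96.8 and 101 CPM in the arterial, 65.4, 64.1 and 55.6 CPM in the venous and 29.6, 26.4 and 35.0 CPM in the endocardial libraries. The 3 populations are separate. Kcnj2 was 2.53-fold lower in endocardial than in coronary libraries (log2 -1.34 ± 0.17, adjusted p = 3.37e-05), 3.15-fold lower than in arterial (adjusted p = 1.26e-05) and 2.03-fold lower than in venous libraries (adjusted p = 0.00163), in every alternative run. The arterial excess over venous libraries was present in 3 of 3 batches (log2 0.63 ± 0.19). It did not pass the edgeR test (adjusted p = 0.192) and passed that of DESeq2 (adjusted p = 0.0464). Kcnj15, another inward rectifier, had 15.5 ± 4.80, 16.9 ± 4.21 and 8.97 ± 3.75 CPM in arterial, venous and endocardial libraries (adjusted p = 0.131).

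Kcnj8 encodes the pore of the vascular ATP-sensitive potassium channel, which couples potential to metabolic state and is also abundant in pericytes (chromosome 6, 142564837 to 142571614, minus strand). It was at 39.6, 52.3 and 35.6 CPM in the arterial, 9.64, 7.10 and 10.2 CPM in the venous and 1.07, 0.577 and 5.90 CPM in the endocardial libraries. The populations are separate, and endocardial replicate 3 stands above the other endocardial libraries. Kcnj8 was 7.69-fold lower in endocardial than in coronary libraries (log2 -2.94 ± 0.65, adjusted p = 0.0124) and 16.7-fold lower than in arterial libraries (log2 4.06 ± 0.72 arterial minus endocardial, adjusted p = 0.0039). Without endocardial replicate 3 these became log2 -4.57 and 5.69. Venous minus endocardial was 1.82 ± 0.67 (adjusted p = 0.139) and reached 3.46 without that library (adjusted p = 4.17e-05).

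Arterial minus venous, Kcnj8 differed 4.72-fold (log2 2.24 ± 0.66), in 3 of 3 batches and with no overlap, without passing the edgeR test on all 9 libraries (adjusted p = 0.265). It passed with the 2 coronary populations alone (adjusted p = 0.000922), with DESeq2 (0.00824), without the filter on low counts (1.28e-06) and without endocardial replicate 2 or 3 (0.0449 and 0.000858). 

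Abcc9, whose product is the regulatory sulfonylurea receptor that assembles with the Kcnj8 pore and whose gene lies near it (chromosome 6, 142587862 to 142702315), followed the same order. It was at 415, 673 and 463 CPM in the arterial, 174, 261 and 168 CPM in the venous and 30.2, 53.3 and 63.0 CPM in the endocardial libraries. All 3 populations are separate. Abcc9 was lower in endocardial than in coronary libraries (log2 -2.72 ± 0.28, adjusted p = 2.79e-05) and higher in arterial than in venous libraries (1.36 ± 0.28, adjusted p = 0.0473). The latter call was lost without arterial replicate 1, 2 or 3 (adjusted p = 0.0779, 0.179 and 0.215), endocardial replicate 2 (0.171) or venous replicate 1 or 3 (0.244 and 0.281). The alternative pore gene Kcnj11 had counts only in endocardial replicates 1 and 2 (2.83 and 0.288 CPM).

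Mural cell markers moved with Kcnj8 in part. Rgs5, a pericyte marker, was at 54.5, 78.8 and 80.7 CPM in the arterial, 20.5, 33.3 and 34.1 CPM in the venous and 6.19, 3.60 and 2.71 CPM in the endocardial libraries (endocardial minus coronary log2 -3.46, adjusted p = 7.62e-07; arterial minus venous 1.28 ± 0.30, adjusted p = 0.0544). Pdgfrb, a receptor gene used to define pericytes, went the other way, at 6.63, 12.6 and 25.1 CPM in the arterial, 11.4, 10.4 and 6.40 CPM in the venous and 25.1, 39.5 and 58.0 CPM in the endocardial libraries (log2 endocardial minus coronary 1.79, adjusted p = 0.0042). Of the 12 mural markers, all had counts, 1 was higher and 2 (Rgs5 and Mcam) were lower in the endocardial libraries, and none was called between arterial and venous libraries. The summed erythroid and platelet markers had the same order of populations as Kcnj8 and Abcc9, an order set by the globin genes Hbb-bs, Hbb-bt and Hba-a2. Pf4, Itga2b and Gp9 of that list had their highest means in the endocardial libraries, with 4.86, 7.46 and 1.74 CPM. Whether RNA of mural or blood cells had a part in the Kcnj8 and Abcc9 values was not tested.

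**Figure D4:**
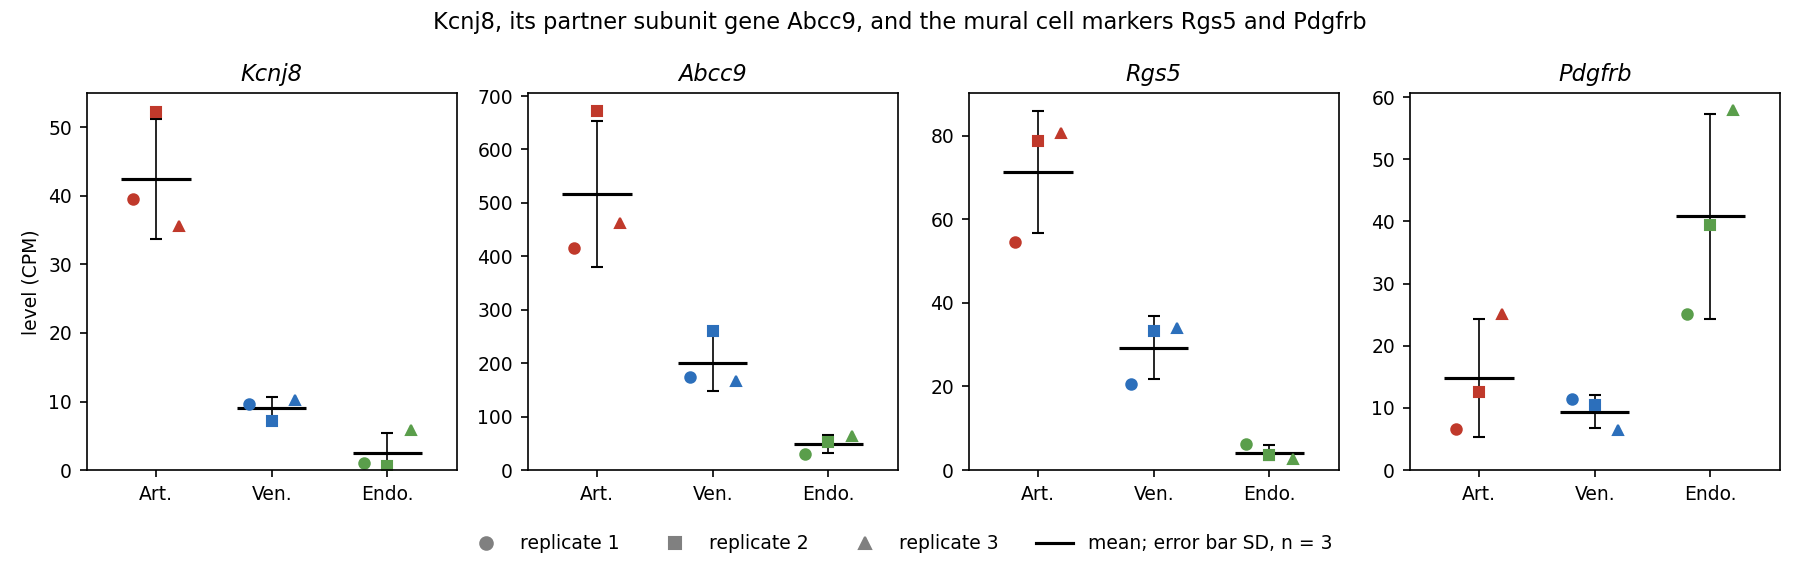
Level in CPM of Kcnj8, Abcc9, Rgs5 and Pdgfrb in the arterial, venous and endocardial libraries; points are libraries, bars are means and error bars SD (n = 3). Kcnj8, Abcc9 and Rgs5 decline from arterial to venous to endocardial libraries (means 42.5, 8.99 and 2.52 CPM for Kcnj8), while Pdgfrb is highest in the endocardial libraries.

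Kcne3 was the only accessory subunit gene of 13 tested that was called. Its product is a single-pass subunit that associates with Kcnq1 and other pores and changes their gating (chromosome 7, 100176502 to 100184869, plus strand). It was at 29.6, 32.6 and 29.0 CPM in the arterial, 46.1, 51.9 and 49.4 CPM in the venous and 10.9, 6.77 and 4.21 CPM in the endocardial libraries, with no overlap between populations. Kcne3 was 5.30-fold lower in endocardial than in coronary libraries (log2 -2.41 ± 0.29, adjusted p = 1.55e-05), 4.17-fold lower than in arterial (adjusted p = 0.000167) and 6.74-fold lower than in venous libraries (adjusted p = 1.64e-05), in every alternative run. The venous excess over arterial libraries did not pass the test (log2 arterial minus venous -0.69 ± 0.29, adjusted p = 0.514). Kcne4, a related subunit gene, stayed at or under 1.69 CPM in every library.

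The two-pore channels, which carry the background leak, were represented mainly by Kcnk6, and 9 of the 13 genes had too few counts to be tested. Kcnk6 was at 16.6, 30.9 and 27.1 CPM in the arterial, 24.8, 22.8 and 32.4 CPM in the venous and 15.7, 24.4 and 27.1 CPM in the endocardial libraries, with full overlap (log2 endocardial minus coronary -0.20 ± 0.26, adjusted p = 0.729). Kcnk5, an acid-sensitive member, was at 4.58, 4.68 and 3.12 CPM in the endocardial libraries and between 0.147 and 3.32 CPM in coronary ones (adjusted p = 0.202). Kcnk2, which can be opened by stretch, was at 1.99, 0.173 and 4.41 CPM in the arterial libraries and at most 1.83 CPM elsewhere. Trpc4ap, the most abundant of the genes that encode no channel, was at 55.6 ± 3.42, 52.9 ± 13.2 and 68.2 ± 25.9 CPM in arterial, venous and endocardial libraries (adjusted p = 0.416).

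**Figure D5:**
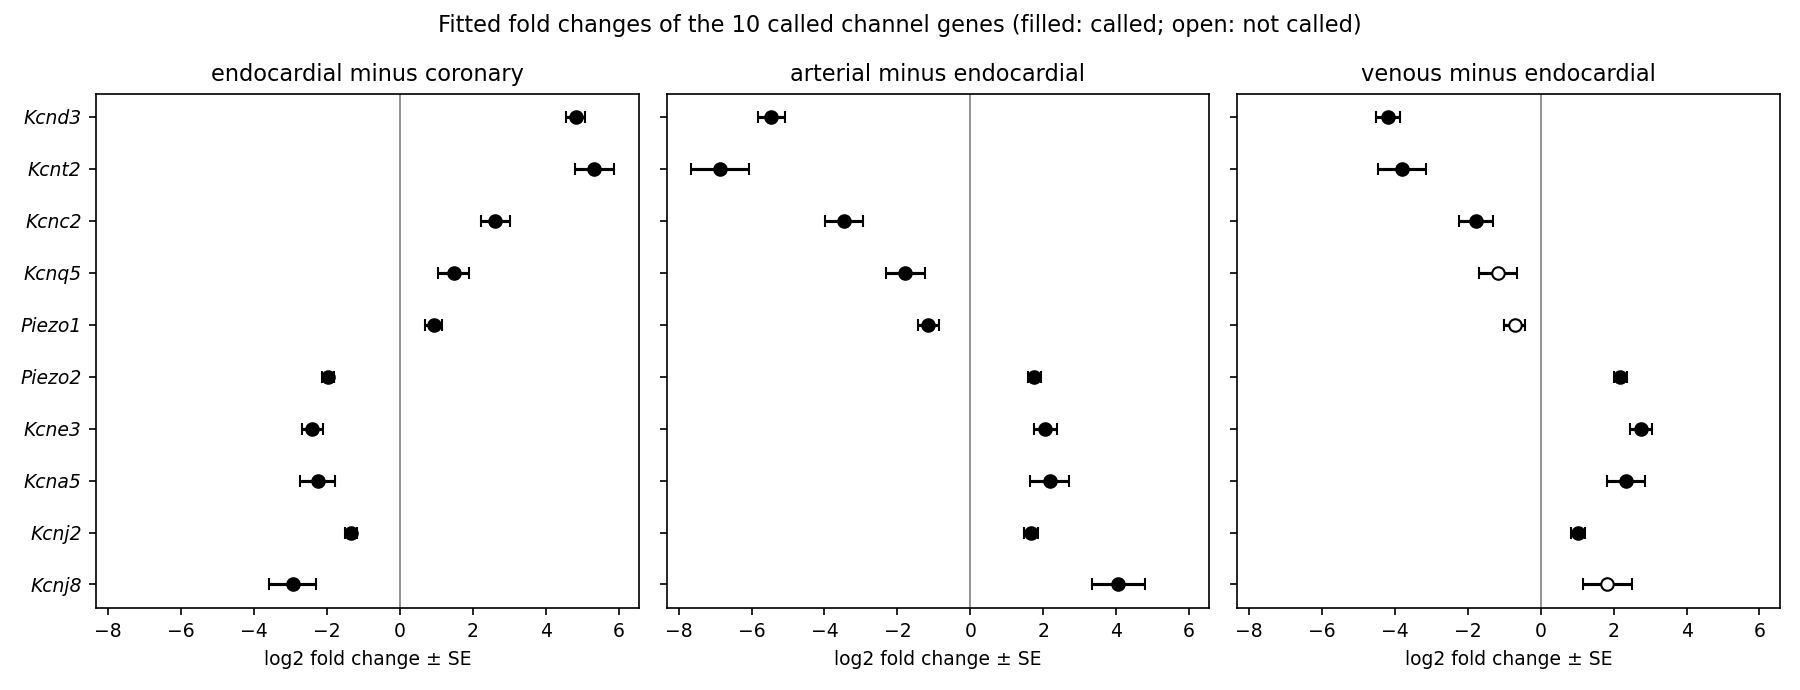
Fitted log2 fold change ± SE of the 10 called channel genes in the 3 comparisons with endocardial libraries; filled points were called and open points were not. The 5 upper genes are higher and the 5 lower genes are lower in endocardial libraries in each panel, from log2 5.34 for Kcnt2 to -2.94 for Kcnj8 against coronary libraries, and Kcnq5, Piezo1 and Kcnj8 are open against venous libraries.

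Genes that work with these channels were read from 3 further lists. Of the 18 partners of potassium channels and ion gradient genes, 15 were tested, and between endocardial and coronary libraries 3 were higher, 3 lower and 9 not called, where 13.9% of all genes were called (6.91% higher and 7.00% lower). The median log2 difference was 0.31, against 0.08 over all genes. The beta subunit genes of the sodium pump, which maintains the potassium gradient, went both ways. Atp1b3 was at 532 ± 34.0 CPM in the endocardial, 268 ± 82.2 in the arterial and 242 ± 53.9 in the venous libraries (log2 1.06 ± 0.18, adjusted p = 0.000426), and Atp1b1 was at 17.4 ± 6.21, 2.09 ± 0.916 and 3.70 ± 0.890 CPM in the same order (2.64 ± 0.40, adjusted p = 0.000176). Atp1b2 was at 2.13 ± 1.06, 19.6 ± 4.67 and 11.6 ± 1.39 CPM (-2.82 ± 0.40, adjusted p = 0.000101). Slc12a2, a cotransporter of sodium, potassium and chloride, was at 103 ± 18.1 CPM in the endocardial and at 276 ± 12.3 and 272 ± 22.4 CPM in the arterial and venous libraries (-1.41 ± 0.15, adjusted p = 4.64e-06). Mdfi, whose product binds Piezo channels and slows their inactivation, was at 11.5 ± 5.83 CPM in the endocardial and at 1.25 ± 0.899 and 1.99 ± 1.36 CPM in the arterial and venous libraries (2.86 ± 0.63, adjusted p = 0.00458), whereas its relative Mdfic was level (-0.10 ± 0.16, adjusted p = 0.802). Against venous libraries Mdfi was not called (adjusted p = 0.054) except with the replicate block (0.0119), with DESeq2 (0.0163) and in some other alternatives. Arterial against venous libraries, Abcc9 alone was called of the 15 (median 0.31, all genes 0.03).

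Of the 22 calcium entry and release genes, 18 were tested, and 3 were higher, 1 was lower and 14 were not called in endocardial against coronary libraries, beside 13.9% of all genes called (median log2 0.34, against 0.08 over all genes). Itpr2, an inositol trisphosphate receptor that releases calcium from the endoplasmic reticulum, was at 709 ± 51.6 CPM in the endocardial, 240 ± 28.3 in the arterial and 330 ± 34.5 in the venous libraries (1.33 ± 0.13, adjusted p = 1.15e-06). Atp2b4, a pump that exports calcium, was at 602 ± 110 CPM against 272 ± 37.3 and 286 ± 47.1 (1.11 ± 0.15, adjusted p = 5.74e-05). Tpcn1, an endolysosomal channel, was at 78.9 ± 23.0 CPM against 22.0 ± 4.90 and 33.5 ± 3.76 (1.54 ± 0.21, adjusted p = 5.91e-05). Stim2, a sensor of calcium stores, was the lower one, at 43.7 ± 3.62 CPM against 88.7 ± 8.06 and 69.7 ± 4.41 (-0.85 ± 0.16, adjusted p = 0.00134). Its relative Stim1 and the pore gene Orai1 were not called (adjusted p = 0.636 and 0.641). None of the 18 was called between arterial and venous libraries (median -0.07).

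Of 23 other mechanosensitive and volume-regulated channel genes, 20 were tested, and 1 was higher, 3 lower and 16 not called in endocardial against coronary libraries, beside 13.9% of all genes called (median log2 -0.03, against 0.08 over all genes). Lrrc8c, a subunit of the volume-regulated anion channel, was at 204 ± 52.8 CPM in the endocardial, 371 ± 57.2 in the arterial and 340 ± 66.2 in the venous libraries (-0.80 ± 0.18, adjusted p = 0.00635). The essential subunit gene of that channel, Lrrc8a, was not called (0.09 ± 0.31, adjusted p = 0.917). Tmc7 was at 2.06 ± 1.88 CPM against 16.4 ± 2.59 and 10.5 ± 2.02 (-2.67 ± 0.67, adjusted p = 0.0168, 0.0879 without endocardial replicate 2), and its fold change was -3.52 without endocardial replicate 1. Tmc6 was at 15.0 ± 3.14 CPM against 31.8 ± 13.8 and 31.4 ± 9.90 (-1.08 ± 0.30, adjusted p = 0.0215). Its call was lost without arterial replicate 2 (adjusted p = 0.0639), endocardial replicate 1 or 2 (0.0651 and 0.0838) or venous replicate 2 (0.0565). Panx1, which forms large-pore channels that release ATP, was higher in the endocardial libraries (1.53 ± 0.47, adjusted p = 0.0386), a call lost with the replicate block (0.0626) and without any 1 library, with adjusted p from 0.0553 to 0.282. None of the 20 was called between arterial and venous libraries (median 0.08).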

How the data were processed

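The authors deposited gene-level expected counts, made per the submitters' processing notes with CASAVA 1.8.2, cutadapt 1.3 and RSEM 1.2.3 on GRCm38. The aligner is not given in the sources used here, nor is the strandedness. Per the labels' protocols, polyA RNA was amplified from a small input and read as single reads. Of the values above 0, 45.5% were not whole, and all were rounded. Genes were tested with the quasi-likelihood F test of edgeR 4.0.16 (R 4.3.3, robust, TMM scaling, filter with a minimum count of 10) in 1 fit of 9 libraries, with Benjamini-Hochberg adjustment over 17103 genes, and checked on simulated data. CPM used TMM library sizes, and exon lengths and coordinates came from GENCODE M21. Alternatives were a replicate block, RLE scaling, DESeq2 1.42.0, no filter, only the 2 populations compared, and leaving out each library. The labelled batch equals the replicate number, and deviations from population means correlated by 0.083 to 0.165 for number 1, 0.0364 to 0.146 for 2 and -0.0902 to 0.0924 for 3. The genes named were those called, the 20 with the highest mean CPM and a set of well-studied channels. Genes and lists were chosen with earlier results of these data known. Some genes that the name pattern or the naming rule would take are not reported here.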

Additional observations from a re-analysis of the deposited data

How the results depend on the processing

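Over the 27 calls of channel-list genes, 368 alternative values were computed: 318 remained called, 50 lost their call and 0 changed sign. Not all of the lost calls are named by gene above. The number of channel genes called between endocardial and coronary libraries was 10, 9 with the replicate block, and 7 to 9 when 1 library was left out. For arterial against endocardial it was 10, 9 and 7 to 10, and for venous against endocardial 7, 8 and 5 to 8. Between arterial and venous libraries it was 0, and 0 with the replicate block, but 4 with DESeq2, 5 without the filter on low counts (Kcnc1, Kcnc2, Kcnd3, Kcnj8 and Kcnt2), 1 with only the 2 populations compared (Kcnj8) and 0 to 1 when 1 library was left out. Besides the calls of Kcnq5, Piezo1, Mdfi, Panx1 and Tmc6 (venous minus endocardial 1.01, adjusted p = 0.0269), the replicate block changed no other call among the genes named. With no filter or DESeq2, venous against endocardial gave 10. The shares of all genes called in the alternative runs are not given here, so that none of these counts can be read against a background. The 40 channel genes too low to be tested in the main fit had a median of 40.5 counts over the 9 libraries, and that fit gives no result for them.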
